A study of Mus musculus with 10 samples.

Results

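The genes described here encode 42 chromatin regulators: Polycomb proteins, the enzymes that write and erase DNA methylation, histone lysine methyltransferases and demethylases, histone deacetylases, the NuRD complex and 2 corepressor scaffolds. They were taken from the count table as a list of names matched to mouse Entrez identifiers, with no threshold on their values, and all 42 were found among 24594 genes. All 42 also passed the filter on low counts, which left 14609 genes tested. The experiment compared gene expression between the epithelial layers of the virgin mouse mammary gland. Bulk RNA-Seq was performed on 5 luminal and 5 basal libraries from wild type C57BL/6J mice with no treatment. By their descriptions, same-numbered luminal and basal libraries come from the same animal (5 animals). The main test left this pairing out, and a fit with the animal as a block was run as an alternative. The labels give no age, and the general methods place all mice between 12 and 20 weeks. Luminal cells line the duct lumen and basal cells form the outer, contractile layer, and both were separated by flow cytometry on EpCAM and CD49f. The luminal gate holds progenitor and mature cells together. The cell type label and the source name decided the groups, since each of the 10 titles gives the other layer.

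Polycomb repressive complexes keep developmental genes silent. PRC2 methylates histone H3 through Ezh1 or Ezh2, and PRC1 reads that mark through a Cbx protein and attaches ubiquitin to histone H2A through Ring1 or Rnf2. Dnmt3a and Dnmt3b place methyl groups on cytosine, Dnmt1 with Uhrf1 copies them after DNA replication, and the Tet enzymes oxidize them. NuRD joins a Chd remodeler to Hdac1 or Hdac2, and most of its subunits exist as alternative paralogs, so that the paralog a cell expresses sets which form of the complex it can build.

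The label check came first. All 10 luminal markers were higher in the luminal libraries, by log2 fold changes (luminal minus basal) of 2.20 to 10.21, and all 7 basal markers were higher in the basal libraries, by -7.46 to -9.45. The basal markers summed to 26.5 to 78.9 CPM (counts scaled to the library total) in luminal and 10378 to 14863 in basal libraries. Library totals were 13203146 to 17565471 counts in luminal and 13676558 to 17998165 in basal samples. Markers of other cells were scarce. The 6 immune markers summed to 4.13 to 11.3 CPM in luminal and 12.2 to 34.4 in basal libraries, and the 3 endothelial markers to 1.58 to 4.06 and 5.73 to 12.4. The 4 fibroblast markers summed to 17.8 to 107 and 22.8 to 36.3, the 2 erythroid markers to 3.37 to 16.8 and 0 to 0.188, and the 3 adipocyte markers to 0.611 to 1.59 and 3.95 to 8.88. Their part in the results below was not tested. Fewer expressing cells and less RNA per cell cannot be told apart in bulk samples.

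The pair of libraries numbered 4 stood apart. Genes with over 6 kb of exon lay below their group by a median of -0.126 log2 units in luminal replicate 4 and -0.187 in basal replicate 4, while genes under 2 kb lay above it by 0.176 and 0.206. The members lay at -0.144 and -0.234 there. Luminal replicate 1 deviated by as much the other way, at 0.122 over 6 kb and -0.17 under 2 kb, with the members at 0.0996. The numbers of members and related genes called are therefore also given without both libraries numbered 4.

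Of the 42 members, 20 (47.6%) were higher in basal and 10 (23.8%) in luminal cells at an adjusted p under 0.05, and 12 did not pass. Over all genes tested, 64.8% were called, 31.2% higher in basal and 33.6% higher in luminal cells. At least 2-fold changes were found for 5 members in each direction. These were Tet1, Kdm6b, Hdac4, Kdm5b and Gatad2b in basal cells, and Uhrf1, Chd3, Hdac7, Mta3 and Hdac1 in luminal cells. The share of all genes called and changed that much was 40%, 19.1% in the basal and 20.9% in the luminal direction. The 5 libraries of each type did not overlap for 15 members in the basal and 8 in the luminal direction, against 25.3% and 24.7% of all genes. The members' median log2 fold change was -0.36, that of all genes 0.05.

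The split moved with scaling, as that of all genes did, and with gene length. The split of called members, luminal to basal, was 10 to 20 with TMM scaling, 12 to 14 with upper-quartile factors and 12 to 10 with library totals, which moved the median of all genes by 0.12 and 0.19. The luminal and basal shares of all genes moved alike, from 33.6% and 31.2% to 37.2% and 27.7% and to 39.1% and 25.4%. The members' median lay below that of all genes in each case, at -0.36 against 0.05, -0.24 against 0.17 and -0.17 against 0.24. Long genes in general were lower in luminal libraries. The median log2 fold change of all genes was 0.47 under 2 kb of exon, 0.06 at 2 to 4 kb, -0.17 at 4 to 6 kb and -0.33 over 6 kb. Members are long, with a median of 5189 exon bases against 3216 for all genes, and 17 of them exceed 6 kb. Of these 17, 9 were called in the basal and 2 in the luminal direction, where 44.7% and 22.1% of all genes over 6 kb were called. When a length curve was removed from each library, an alternative added after seeing the data, 15 members were called in each direction and their median was -0.03, against 0.08 for all genes. The shares of all genes then were 34% luminal and 29.8% basal, little moved. Whether the length trend comes from the cells or from RNA handling and alignment was not tested. Without both libraries numbered 4 the split was 11 to 19.

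A set of 19 members kept its call and direction in all 21 alternative settings. It holds all 10 members higher in luminal cells (Bmi1, Ring1, Cbx6, Cbx7, Dnmt1, Uhrf1, Hdac1, Hdac7, Chd3 and Mta3) and 9 of the 20 higher in basal cells (Suz12, Cbx2, Tet1, Kdm6b, Kdm5b, Hdac3, Hdac4, Gatad2b and Rcor1). The share of all genes that kept their call in every setting was not measured. Upper-quartile factors and library totals shifted genes toward luminal by a median of 0.12 and 0.19. Length removal moved genes by a median of 0.11 toward luminal, but unevenly. Long genes such as Ezh1 (0.26 to 0.59) moved toward luminal, and short ones such as Hdac1 (1.26 to 1.01) and Hdac3 (-0.68 to -0.92) toward basal. The kept counts of luminal and basal members therefore cannot be compared.

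**Figure D1:**
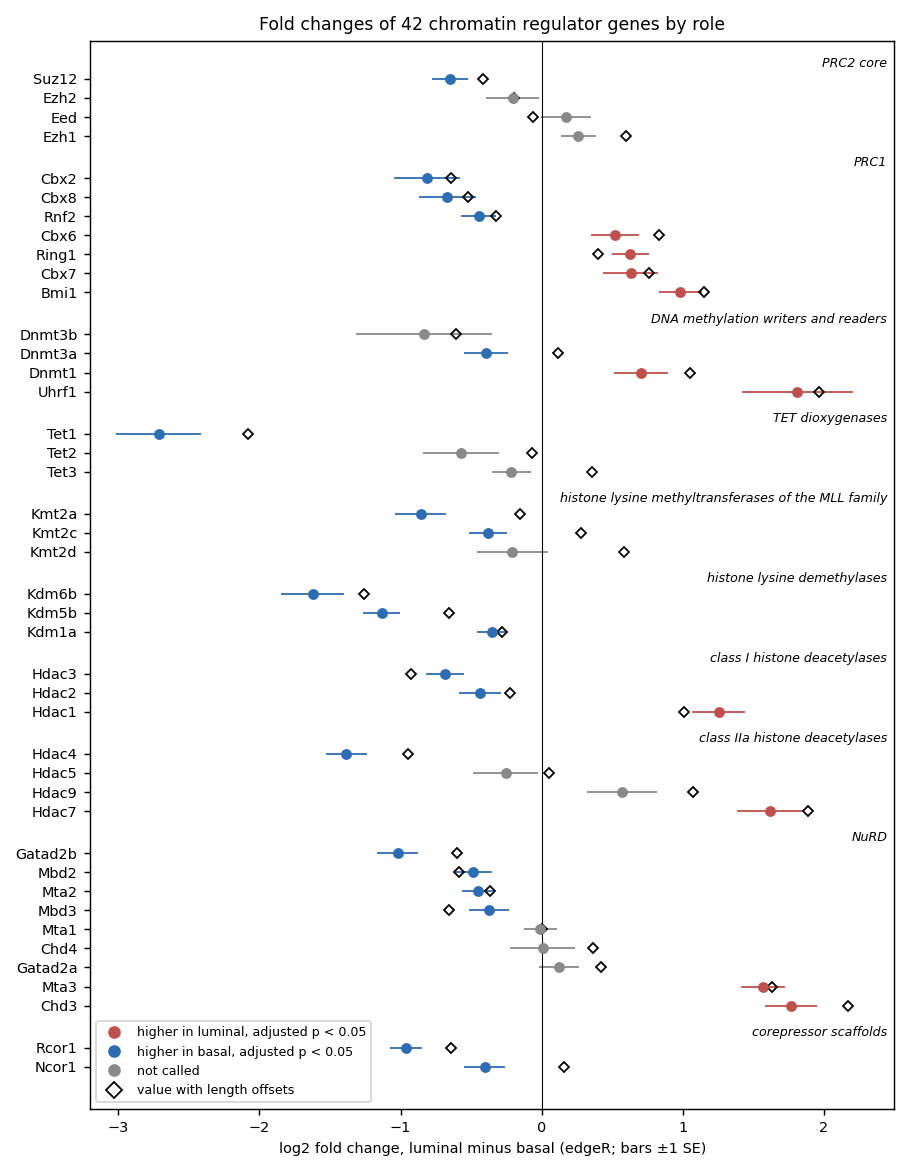
Log2 fold change (luminal minus basal) of each of the 42 members by role, with bars of ±1 SE from edgeR, n = 5 libraries per cell type; red and blue mark members called higher in luminal or basal cells, grey those not called, and open diamonds the value after removal of a length curve. Tet1 lies farthest to the basal side at -2.71 and Uhrf1 farthest to the luminal side at 1.81, and the diamonds of the MLL family lie well to the right of their points.

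**Figure D2:**
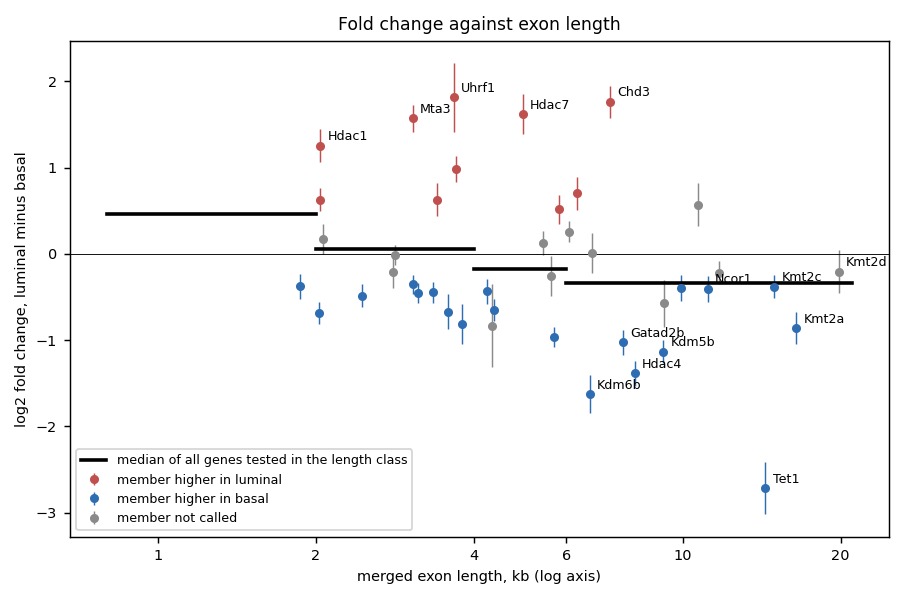
Log2 fold change (luminal minus basal, ±1 SE, n = 5 libraries per cell type) of each member against its merged exon length in kb on a log axis; black bars show the median of all genes tested in each length class. The bars step down from 0.47 under 2 kb to -0.33 over 6 kb, and Kmt2a, Kmt2c and Ncor1, which are called in basal cells, sit among the longest members.

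Of the 4 PRC2 core members, Suz12, the subunit that holds the complex together, alone passed the test, which 64.8% of all genes passed. It stood at 54.1 ± 5.48 CPM (SD, n = 5) in luminal and 84.7 ± 9.23 in basal cells, a log2 fold change of -0.65 ± 0.13 (SE, adjusted p = 0.000439). The catalytic subunits did not pass. Ezh2, the methyltransferase typical of dividing cells, measured 16.8, 15.3, 22.5, 16.9 and 24.4 CPM in luminal libraries 1 to 5 and 18.6, 27.6, 22.7, 16.7 and 25.1 in basal libraries 1 to 5. The ranges overlapped almost fully, with a log2 fold change of -0.21 ± 0.19 (adjusted p = 0.353). Ezh1, the methyltransferase that prevails in resting cells, measured 86.1, 91.4, 91.4, 71.5 and 75.2 CPM in luminal and 63.8, 78.4, 68.6, 67.6 and 68.9 CPM in basal libraries. In all 5 animals the luminal library held more Ezh1, but the groups overlapped, and the log2 fold change of 0.26 ± 0.12 missed the threshold (adjusted p = 0.0772). It passed in 5 of the 21 alternatives, among them length removal (0.59, adjusted p = 0.000329) and the omission of luminal replicate 4 (0.31, adjusted p = 0.0386). Per kb of exon (RPKM), Ezh1 stood at 13.7 in luminal and 11.4 in basal cells and Ezh2 at 6.85 and 7.90, so the Ezh1 level was the higher in both layers. Eed, which binds the methyl mark, measured 46.6 ± 11.3 CPM in luminal and 41.4 ± 7.55 in basal cells (log2 fold change 0.17 ± 0.18, adjusted p = 0.409). Its luminal replicate 4 stood at 66.6 CPM, and 12.6% of its exon bases overlap a transcript on the opposite strand, E230029C05Rik, which counts without known strand cannot separate.

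All 7 PRC1 members were called, 4 toward luminal and 3 toward basal cells, where 64.8% of all genes were called. Ring1 and Rnf2 went opposite ways. Bmi1, 1 of the 2 Pcgf subunits of canonical PRC1, was higher in luminal cells at 32.9 ± 5.51 against 16.7 ± 1.6 CPM (log2 fold change 0.98 ± 0.15, adjusted p = 6.42e-05), with no overlap. The other, Pcgf2, was not called, at 64.6 ± 9.19 CPM in luminal and 64.8 ± 12.9 in basal cells. Of the catalytic pair, Ring1 was higher in luminal cells at 35.4 ± 1.64 against 22.9 ± 3.04 CPM (0.63 ± 0.13, adjusted p = 0.000848). Its partner Rnf2 was higher in basal cells at 113.6 ± 9.57 against 83.4 ± 9.95 CPM (-0.45 ± 0.13, adjusted p = 0.00625), a call lost with library totals (-0.26, adjusted p = 0.09) and with length removal and the animal as a block together (-0.33, adjusted p = 0.0716). The Ring1 to Rnf2 ratio within a library was 0.368 to 0.494 in luminal and 0.163 to 0.247 in basal samples. On the RPKM scale Rnf2 remained the higher of the pair in both layers, at 24.9 against 17.4 in luminal and 34.0 against 11.3 in basal cells.

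The Cbx readers lie in close pairs on the genome, and the genes of a pair had the same direction. Cbx6 (chr15:79823898-79834333, GRCm38) and Cbx7 (chr15:79915804-79971143) were both higher in luminal cells, Cbx6 at 211.6 ± 50.6 against 147.7 ± 19.1 CPM (log2 fold change 0.52 ± 0.17, adjusted p = 0.015) and Cbx7 at 86.3 ± 23.6 against 55.7 ± 12.8 (0.63 ± 0.20, adjusted p = 0.0115). The libraries of both genes overlapped, and luminal replicate 3 carried the highest Cbx7 level at 128 CPM. Of the Cbx6 exon bases, 9.7% overlap Npcd on the same strand. Cbx2 (chr11:119023019-119031275) and Cbx8 (chr11:119036303-119040913) were both higher in basal cells with no overlap. Cbx2 stood at 27.8 ± 6.64 against 15.8 ± 4.61 CPM (-0.81 ± 0.24, adjusted p = 0.00758) and Cbx8 at 11.7 ± 0.582 against 7.32 ± 1.76 (-0.67 ± 0.20, adjusted p = 0.00988), a call that library totals ended (-0.47, adjusted p = 0.0733). By mean level per kb the order was Cbx6, Cbx7, Cbx2 and Cbx8 in both layers, although in luminal libraries Cbx6 (27.6 to 48.3 RPKM) overlapped Cbx7 (20.1 to 37.5) and Cbx2 (2.11 to 5.19) overlapped Cbx8 (1.44 to 2.64), with Cbx6 at 36.5 and 25.4 RPKM and Cbx8 at 2.05 and 3.25 RPKM in luminal and basal cells.

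The maintenance factors Dnmt1 and Uhrf1 were higher in luminal cells, whereas of the de novo enzymes Dnmt3a was called higher in basal cells and Dnmt3b was not called. Dnmt1, the maintenance methyltransferase, measured 126, 75.1, 85.7, 70.2 and 86.9 CPM in luminal libraries 1 to 5 and 67.0, 49.9, 47.0, 40.3 and 68.1 in basal ones. Every luminal value exceeded every basal one, and the log2 fold change was 0.70 ± 0.19 (adjusted p = 0.00491). Uhrf1, which recruits Dnmt1 to newly replicated DNA, measured 2.69, 6.22, 3.37, 1.53 and 3.68 CPM in luminal and 1.12, 1.02, 0.851, 1.13 and 0.839 in basal libraries. The groups did not overlap and the log2 fold change was 1.81 ± 0.40 (3.51-fold, adjusted p = 0.00109), but the gene was scarce, with 20 to 118 raw counts per luminal and 11 to 18 per basal library. Genes of DNA replication and mitosis, given here because Uhrf1 and Dnmt1 are known to rise in cycling cells, did not move one way: of 18, 15 were tested, 3 were higher in luminal cells (Ccna2, Mcm5 and Mcm6), 2 in basal cells (Mcm7 and Pcna) and 10 not called. Their sum was 140 to 192 CPM in luminal and 176 to 208 in basal libraries, most of it from Mcm genes and Pcna. Luminal replicate 2, with the highest Uhrf1, was also highest of the luminal libraries in Mki67 at 12 CPM (2.06 to 3.62 in the others), Cdk1 at 6.43 (0.491 to 1.52) and Aurkb at 3.69 (0 to 0.92). Basal replicate 2 was likewise highest of its group in Mki67 at 9.14 CPM and Aurkb at 0.682, with Uhrf1 at 1.02 inside the basal range, and Dnmt1 in luminal replicate 2 was the second lowest luminal value. Without that library the Uhrf1 log2 fold change was 1.51 and the call held, and the part of cycling cells in the difference was not tested.

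Dnmt3a, a de novo methyltransferase, measured 61.0, 52.4, 61.2, 49.0 and 41.2 CPM in luminal and 76.5, 76.0, 71.1, 51.6 and 73.0 in basal libraries. It was higher in the basal library of all 5 animals, and the ranges overlapped through basal replicate 4 alone. The log2 fold change was -0.39 ± 0.15 (adjusted p = 0.035), a call that ended in 7 of the 10 single-library omissions (adjusted p up to 0.0883, all but luminal replicates 1 and 3 and basal replicate 4) and that turned to 0.11 (adjusted p = 0.449) once length was removed. It also ended with upper-quartile factors (-0.27, adjusted p = 0.127) and library totals (-0.20, adjusted p = 0.312). Reads of its pseudogene Dnmt3a-ps1 could also be shared with it. Dnmt3b, the other de novo enzyme, was near the limit of counting at 1.63, 2.21, 2.02, 1.37 and 0.254 CPM in luminal and 2.06, 2.25, 2.24, 2.06 and 4.80 in basal libraries. The higher basal level in all 5 animals did not pass (-0.83 ± 0.48, adjusted p = 0.144), and luminal replicate 5 rested on 4 raw counts. Within a library, the Dnmt3a to Dnmt1 CPM ratio was 0.475 to 0.714 in luminal and 1.07 to 1.52 in basal cells.

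Promoter sequence from RefSeq (GRCm38.p6) was available for 35 of the 42 members, as 48 windows of the 250 bases before a start. Because Uhrf1 and Dnmt1 are textbook targets of E2F, the regulators of cell cycle entry, these windows were searched on both strands for TTTNNCGC with C or G at each N. A match was present in 3 of 48 member windows (6.25%) and in 1.86% of 32851 windows of all genes. The matching stretches belong to Uhrf1, Dnmt1 and Suz12, all called members, and are shown on the strand of the gene with the match in capitals. Because Uhrf1 and Dnmt1 prompted the search, the member share is partly fixed by that choice and is no test of enrichment. A match describes letters only.
Uhrf1, chr17:56304117-56304146, plus strand: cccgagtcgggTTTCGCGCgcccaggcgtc
Dnmt1, chr9:20952824-20952853, minus strand: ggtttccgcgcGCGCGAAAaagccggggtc
Suz12, chr11:79992876-79992905, plus strand: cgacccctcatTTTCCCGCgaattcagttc
The member windows held a median of 21 CpG (0 to 51), the dinucleotide that Dnmt enzymes methylate, against 6 over all windows. The windows of all genes were not limited to genes that passed the count filter, as all members did. The CpG count over windows of the genes tested was not measured, so no trait of the members can be read from it.

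Tet1 showed the widest difference of all members. The Tet enzymes oxidize methylcytosine as the first step of its removal. Tet1 (chr10:62804570-62887469, 14376 exon bases) measured 3.25, 3.32, 2.02, 4.96 and 1.33 CPM in luminal and 16.4, 19.9, 23.8, 15.8 and 21.5 in basal libraries. The lowest basal library lay far above the highest luminal one, luminal libraries held 21 to 65 raw counts and basal ones 253 to 359, and the gene was 6.56-fold higher in basal cells (log2 fold change -2.71 ± 0.30, adjusted p = 2.21e-06). With length removed it was -2.08 (adjusted p = 2.05e-05). Tet2 stood at 59.3 ± 19.5 CPM in luminal and 88.3 ± 29.1 in basal cells (-0.57 ± 0.27, adjusted p = 0.0768). Its basal replicate 4 was the lowest basal library at 41.1 CPM, and without it the difference passed (-0.76, adjusted p = 0.00848). Tet2 also passed without luminal replicate 3 (-0.71, adjusted p = 0.0488), without both libraries numbered 4 (-0.75, adjusted p = 0.0145), with DESeq2 (-0.62, adjusted p = 0.0451) and with no filter (-0.64, adjusted p = 0.0499), while with length removed it was -0.07 (adjusted p = 0.829). Tet3 stood at 61.6 ± 4.73 and 71.5 ± 12.3 CPM (-0.22 ± 0.14, adjusted p = 0.187), and length removal turned it to 0.36 (adjusted p = 0.0157). On the RPKM scale Tet1 was the lowest of the 3 in both layers, at 0.207 in luminal and 1.36 in basal cells, while Tet2 reached 6.45 and 9.59.

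**Figure D3:**
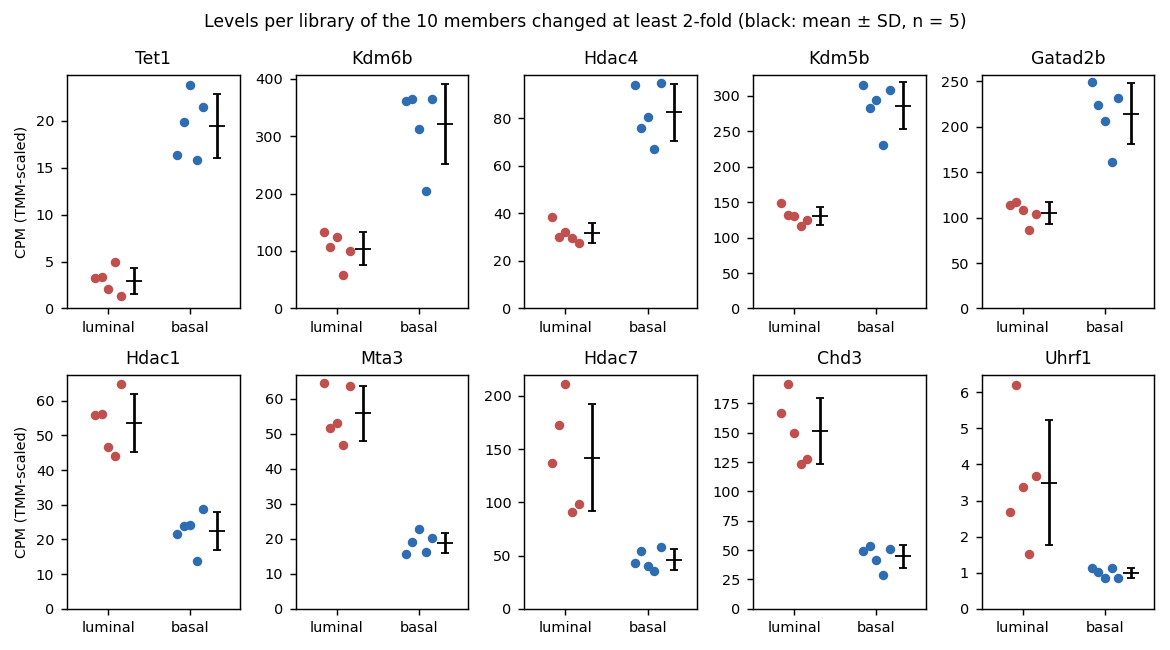
CPM on TMM-scaled totals in each library for the 10 members changed at least 2-fold, basal-high genes in the upper and luminal-high genes in the lower row; points are libraries and black bars the mean ± SD (n = 5). The luminal and basal points do not overlap for any of the 10 genes, which were selected by call and fold change. Of all genes tested, 24.7% in the luminal and 25.3% in the basal direction did not overlap.

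All 3 histone lysine demethylases were higher in basal cells, as were 31.2% of all genes and 44.7% of those over 6 kb, the length class of Kdm6b and Kdm5b. Kdm6b, which removes the PRC2 mark, measured 133, 107, 124, 57.6 and 99.5 CPM in luminal and 360.3, 365, 312, 204 and 365 in basal libraries (chr11:69398508-69420367). Both libraries numbered 4 were the lowest of their group, and the groups were still far apart, with a log2 fold change of -1.62 ± 0.22 (3.08-fold, adjusted p = 1.99e-05). Kdm5b, which removes the active methyl mark at promoters, measured 149, 132, 131, 116 and 124 CPM in luminal and 316, 282, 294, 231 and 308 in basal libraries (chr1:134560178-134632878). The log2 fold change was -1.13 ± 0.13 (2.19-fold, adjusted p = 3.91e-06), and -0.65 (adjusted p = 0.000115) with length removed. Kdm1a, the demethylase of the Rcor1 complex, differed less, at 142.5 ± 4.01 against 181.7 ± 10.3 CPM (-0.35 ± 0.11, adjusted p = 0.0117), and this call was lost with upper-quartile factors (-0.23, adjusted p = 0.078), with library totals (-0.16, adjusted p = 0.252) and with length removal and the block together (-0.28, adjusted p = 0.0603).

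The methyltransferases of the MLL family mark active promoters and enhancers, and they are among the longest members. Kmt2a stood at 133.2 ± 16.2 CPM in luminal and 241.6 ± 62.5 in basal cells with no overlap (-0.86 ± 0.18, adjusted p = 0.000804), but with length removed the value was -0.15 (adjusted p = 0.361). Kmt2c stood at 89.7 ± 10.6 and 116.7 ± 15.9 CPM (-0.38 ± 0.14, adjusted p = 0.024), and Kmt2d at 213.2 ± 65.5 and 246.2 ± 70.9 (-0.21 ± 0.25, adjusted p = 0.486). With length removed these 2 turned to 0.28 (adjusted p = 0.0545) and 0.58 (adjusted p = 0.0363). No call of this family therefore held in all settings run. Kmt2c also lost its call in 3 single-library omissions, those of luminal replicate 2, basal replicate 3 and basal replicate 5 (adjusted p 0.0666 to 0.0794), and with upper-quartile factors (-0.26, adjusted p = 0.106) and library totals (-0.19, adjusted p = 0.255).

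The class I deacetylases split by paralog. Hdac1 (chr4:129516104-129542646) measured 55.8, 56.2, 46.6, 44.1 and 64.9 CPM in luminal and 21.6, 23.8, 24.1, 13.8 and 28.8 in basal libraries. The lowest luminal library exceeded the highest basal one, with a log2 fold change of 1.26 ± 0.19 (2.39-fold, adjusted p = 4.57e-05). Hdac2, which occupies the same position in NuRD, leaned the other way at 34.2 ± 6.16 against 46.2 ± 4.45 CPM (-0.43 ± 0.15, adjusted p = 0.0199). That call was lost in 6 of the 21 alternatives, among them the omission of luminal replicate 2 (-0.38, adjusted p = 0.0516), the omission of both libraries numbered 4 (-0.33, adjusted p = 0.0616) and length removal (-0.22, adjusted p = 0.172). Hdac3, the deacetylase of the Ncor complexes, was higher in basal cells at 96.1 ± 8.77 against 59.8 ± 8.60 CPM (-0.68 ± 0.13, adjusted p = 0.000404), with no overlap. The Hdac1 to Hdac2 CPM ratio was 1.36 to 1.87 in luminal and 0.280 to 0.605 in basal libraries. On the RPKM scale Hdac1 stood at 26.3 against 8.08 for Hdac2 in luminal cells, whereas in basal cells they stood at 11 and 10.9.

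Class IIa deacetylases, which bind MEF2 factors, contained both a luminal and a basal gene. Hdac7 (chr15:97792661-97844502) measured 137, 172, 211, 91.3 and 98.0 CPM in luminal and 43.1, 54.2, 40.1, 35.5 and 58.4 in basal libraries. The luminal libraries varied widely but none overlapped the basal ones, and the log2 fold change was 1.62 ± 0.23 (3.07-fold, adjusted p = 2.78e-05). Hdac4 (chr1:91928779-92195702) measured 38.5, 29.9, 32.1, 29.7 and 27.6 CPM in luminal and 93.9, 75.8, 80.5, 67.3 and 95.0 in basal libraries. Its groups lay well apart, and the log2 fold change was -1.39 ± 0.14 (2.61-fold higher in basal cells, adjusted p = 1.23e-06). Hdac5 stood at 180.8 ± 40.5 and 215.8 ± 76.3 CPM and did not pass (-0.26 ± 0.23, adjusted p = 0.352). Hdac9 stood at 21.2 ± 6.74 and 14.3 ± 5.00 CPM (0.57 ± 0.25, adjusted p = 0.0569), with more in luminal than basal cells of each of the 5 animals. Hdac9 passed in 11 of the 21 alternatives. It did so with the animal as a block (0.58, adjusted p = 0.00979), with length removed (1.07, adjusted p = 0.00466), with limma voom (0.56, adjusted p = 0.0489), without both libraries numbered 4 (0.60, adjusted p = 0.00614), which held its highest level in each layer, and without luminal replicate 1, luminal replicate 3 or basal replicate 4 (adjusted p 0.00583 to 0.0443). Per kb, the luminal order was Hdac5 at 32.1, Hdac7 at 28.6, Hdac4 at 3.90 and Hdac9 at 1.98 RPKM. Hdac5 and Hdac7 overlapped there, at 22.6 to 37.9 and 18.4 to 42.6 RPKM. In basal cells Hdac5 led at 38.4 RPKM, with Hdac4 at 10.2 and Hdac7 at 9.32, whose ranges of 8.31 to 11.7 and 7.16 to 11.8 overlapped, and Hdac9 at 1.33.

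The 9 NuRD members split into 2 higher in luminal cells, 4 higher in basal cells and 3 not called, a share near the 64.8% of all genes called. Among the remodelers, Chd3 (chr11:69343273-69369499) measured 167, 191, 150, 123 and 128 CPM in luminal and 48.9, 53.6, 41.2, 28.9 and 50.7 in basal libraries. There was no overlap, and the log2 fold change was 1.76 ± 0.18 (3.40-fold, adjusted p = 1.23e-06). Chd3 lies close to Kdm6b on chromosome 11, and these genes differed in opposite directions. Chd4, the alternative remodeler, did not pass, at 297.0 ± 117 CPM in luminal and 295.7 ± 43.7 in basal cells (0.01 ± 0.23, adjusted p = 0.982), and its wide luminal range of 180.0 to 479 CPM leaves changes in either direction possible. By level per kb Chd4 exceeded Chd3 in both layers, at 44.2 against 20.9 RPKM in luminal and 44.0 against 6.15 in basal cells.

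Of the Mta subunits, which tether the deacetylase, Mta3 (chr17:83706163-83823715) measured 64.4, 51.5, 52.9, 46.7 and 63.7 CPM in luminal and 15.7, 19.2, 22.9, 16.1 and 20.1 in basal libraries. The layers were clearly separated, with a log2 fold change of 1.57 ± 0.16 (2.97-fold, adjusted p = 6.93e-07), the lowest adjusted p among the members. Mta2 was higher in basal cells at 129.3 ± 6.03 against 94.5 ± 6.95 CPM (-0.45 ± 0.11, adjusted p = 0.00251), a call that library totals ended (-0.26, adjusted p = 0.0729). Mta1 stood at 136.4 ± 9.56 and 137.3 ± 11.9 CPM (-0.01 ± 0.12, adjusted p = 0.954). It was the highest of the 3 by RPKM in both layers, at 48.2 in luminal and 48.5 in basal cells, while Mta3 stood at 18.3 and 6.15.

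Of the linker subunits Gatad2a and Gatad2b, only Gatad2b passed. It (chr3:90293181-90363405) measured 113, 117, 108, 85.8 and 104 CPM in luminal and 249, 224, 206, 161 and 232 in basal libraries, without overlap. It was 2.03-fold higher in basal cells (-1.02 ± 0.15, adjusted p = 2.66e-05), and -0.60 (adjusted p = 0.000595) with length removed. Gatad2a stood at 92.3 ± 16.9 and 84.6 ± 7.74 CPM (0.13 ± 0.14, adjusted p = 0.455), and passed with length removed (0.42, adjusted p = 0.0114). The methyl-DNA reader Mbd2 was higher in basal cells at 148.0 ± 10.3 against 105.8 ± 17.0 CPM (-0.48 ± 0.13, adjusted p = 0.00548), but not with library totals (-0.28, adjusted p = 0.107). Mbd3, its alternative in NuRD, stood at 75.0 ± 9.21 and 97.2 ± 16.4 CPM (-0.37 ± 0.14, adjusted p = 0.0333). That call was lost with the animal as a block (-0.37, adjusted p = 0.0556) and without both libraries numbered 4 (-0.26, adjusted p = 0.101), of which basal replicate 4 held its highest level at 124 CPM. Omission of luminal replicate 2 or 3 or of basal replicate 3 or 4 alone also ended it (adjusted p 0.0559 to 0.0793), as did upper-quartile factors (-0.25, adjusted p = 0.129) and library totals (-0.19, adjusted p = 0.26). With length removed the difference was wider (-0.66, adjusted p = 0.000645).

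The windows before RefSeq starts were also searched on both strands for NGATAN, with A or T at the first N and A or G at the last, the letters bound by the GATA zinc fingers, because the study concerns Trps1, a repressor with such a finger. In sorted luminal cells the paper found regions bound by TRPS1 enriched for motifs of another finger type, C2H2. It proposes that TRPS1 depends more on those fingers there than on the GATA domain. A match was found in 10 of 48 member windows (20.8%) and in 26.5% of all windows. These matches describe letters only, and binding of Trps1 to them was not tested. The examples below belong to the class IIa and NuRD genes just described, on the gene strand with the match in capitals.
Hdac7, chr15:97831555-97831582, minus strand: ctctcagactcAGATAAagcatttcctt
Gatad2b, chr3:90293971-90293998, plus strand: gcactggataaTTATCTttattgggggg
Chd4, chr6:125095783-125095810, plus strand: gttattatgggTTATCTaagggaggggg
Hdac7 was higher in luminal cells, Gatad2b in basal cells and Chd4 was not called.

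Both corepressor scaffolds were higher in basal cells, as were 31.2% of all genes, 39.4% of those of 4 to 6 kb (the class of Rcor1) and 44.7% of those over 6 kb (the class of Ncor1). Rcor1, which holds Kdm1a with Hdac1 or Hdac2, stood at 86.1 ± 4.56 CPM in luminal and 167.5 ± 13.0 in basal cells (-0.96 ± 0.11, adjusted p = 4.51e-06) with no overlap. Ncor1, the scaffold of nuclear receptor repression that activates Hdac3, stood at 187.8 ± 10.3 and 248.6 ± 47.0 CPM (-0.40 ± 0.15, adjusted p = 0.0269). Its basal replicate 4, at 175 CPM, was the one basal library inside the luminal range. The Ncor1 call was lost in 8 of the 21 alternatives, among them upper-quartile factors (-0.28, adjusted p = 0.106), library totals (-0.21, adjusted p = 0.213) and the single omissions of luminal replicates 1 and 2 and basal replicates 1 and 5 (adjusted p 0.0503 to 0.0816), and with length removed the value turned to 0.16 (adjusted p = 0.288).

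Ratios between related members were then taken within each library, where library scaling cancels. The length trend does not cancel where the genes of a pair differ in exon length, and no ratio was taken with length removed. The groups did not overlap for 12 of 19 pairs, and no test was made of these ratios. Of all single genes, 24.7% in the luminal and 25.3% in the basal direction did not overlap, and the share among other gene pairs was not measured. The Mta3 to Mta2 CPM ratio was 0.524 to 0.670 in luminal and 0.128 to 0.183 in basal libraries, a 4.06-fold difference of the group means on the log scale. The Chd3 to Chd4 ratio was 0.348 to 0.902 in luminal and 0.124 to 0.169 in basal libraries, 3.58-fold apart. Both NuRD ratios were thus higher in every luminal library, as was Hdac1 to Hdac2 (3.31-fold apart). Hdac7 to Hdac5 was 0.654 to 0.991 in luminal and 0.132 to 0.269 in basal libraries (3.44-fold). Tet1 to Tet2 was 0.0277 to 0.0901 and 0.143 to 0.386, and Hdac4 to Hdac5 0.145 to 0.234 and 0.288 to 0.510. The other pairs without overlap were Cbx7 to Cbx8, Cbx6 to Cbx8, Ring1 to Rnf2 and Gatad2a to Gatad2b, which were higher in luminal cells by 2.49-, 2.28-, 2.12- and 2.18-fold, Mta1 to Mta2 by 1.36-fold, and Dnmt3a to Dnmt1, which was higher in basal cells by 2.14-fold. The pairs Ezh2 to Ezh1, Cbx2 to Cbx8, Dnmt3a to Dnmt3b, Tet3 to Tet2, Kmt2c to Kmt2d, Hdac9 to Hdac5 and Mbd2 to Mbd3 overlapped. No ratio with Kmt2a was taken.

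**Figure D4:**
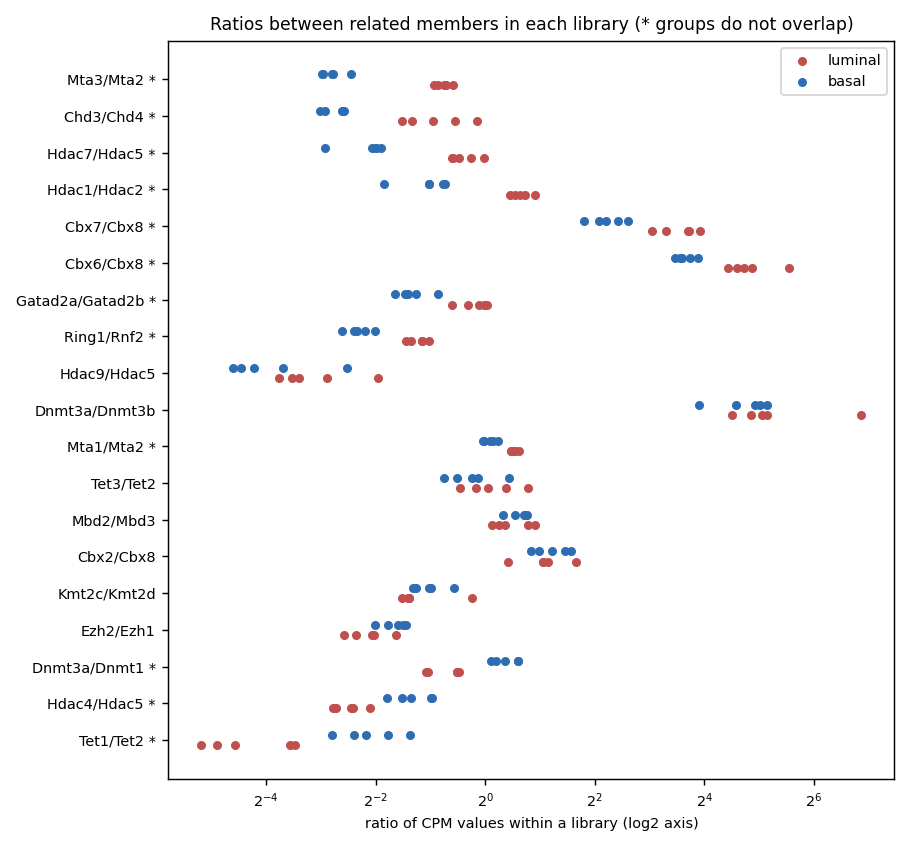
Ratio of the CPM of related members in each library on a log2 axis, luminal libraries in red and basal in blue (n = 5 each); a star marks the 12 of 19 pairs whose groups do not overlap. The Mta3 to Mta2, Chd3 to Chd4, Hdac7 to Hdac5 and Hdac1 to Hdac2 ratios lie higher in every luminal library, and the Tet1 to Tet2 ratio in every basal library.

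Other subunits of the same complexes were then counted. Of 62 listed genes, 61 were tested, 26 (42.6%) were higher in basal and 12 (19.7%) in luminal cells and 23 were not called, against the 31.2% and 33.6% of all genes given above. With length removed 17 were called in each direction, against 34% of all genes called luminal and 29.8% basal. Without both libraries numbered 4, 28 were higher in basal and 13 in luminal cells. Of 14 other PRC1 genes, 8 were higher in basal and 3 in luminal cells. Those changed at least 2-fold were Pcgf5 (53.7 ± 4.22 against 137.6 ± 15.4 CPM, log2 fold change -1.36, adjusted p = 3.13e-07), a Pcgf subunit of variant PRC1, and Yaf2 (16.1 ± 2.19 against 35.4 ± 2.56, -1.14, adjusted p = 6.85e-06), which occupies the place of a Cbx protein there. Of 7 other PRC2 genes, 1 was called: the DNA-binding accessory subunit Aebp2 was higher in basal cells at 156.6 ± 37.8 against 58.9 ± 13.2 CPM (-1.41, adjusted p = 1.81e-05). Jarid2, which helps recruit PRC2, stood at 347 ± 391 and 170.5 ± 47.2 CPM (1.02, adjusted p = 0.0937), and luminal replicate 4 alone held 1040 CPM of it.

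Of 7 other genes of DNA methylation, 5 were higher in basal and 1 in luminal cells. For this and the small lists that follow, 31.2% of all genes were called in the basal direction and 33.6% in the luminal direction. Dnmt3l, the inactive cofactor of Dnmt3a, was at 0.201 ± 0.136 CPM in luminal and 3.44 ± 1.84 in basal cells (-4.00, adjusted p = 3e-05), and Mbd4, a repair glycosylase, at 3.12 ± 0.532 and 7.06 ± 1.23 (-1.18, adjusted p = 0.000601). Both were scarce genes. Of 8 other MLL and demethylase genes, 5 were higher in basal cells and none in luminal cells, all by under 2-fold, with 3 not called. Of 4 other deacetylases, 3 were higher in luminal cells. Hdac11, the only class IV deacetylase, stood at 245.8 ± 73.1 against 26.7 ± 4.94 CPM (3.20, adjusted p = 9.75e-09) and Hdac10 at 9.81 ± 2.93 against 4.30 ± 0.748 (1.19, adjusted p = 0.000985). The Chd remodeler Chd5 was near the limit of counting in luminal cells, at 0.920 ± 1.05 against 4.90 ± 1.64 CPM (-2.45, adjusted p = 0.00278). Of 15 other corepressor genes 4 were called in each direction, and Rcor2, a paralog of Rcor1, was higher in luminal cells at 8.45 ± 1.00 against 2.95 ± 0.871 CPM (1.52, adjusted p = 0.000106), opposite to Rcor1. Both PR-DUB genes Asxl1 and Asxl2 were higher in basal cells and Bap1 was not called.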

How the data were processed

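For 10 libraries, the authors deposited a table of unnormalized, whole-number counts of reads by gene. The study's methods name poly(A) selection, adapter removal with cutadapt and alignment to mm10 with bowtie2 at default settings, which does not align reads across splice junctions, and the submitters' processing notes give cutadapt 4.2 and Bowtie2 2.3.5.1. Those methods describe fewer replicates than are present here, so that they hold for these libraries was assumed. The counting tool, annotation and use of strand are not given in the sources used here, so genes with overlapping exons or pseudogenes are uncertain. The numbering of sorted libraries by animal was read from their descriptions, which carry the same leading number for same-numbered luminal and basal libraries (5 animals). Deviations of same-numbered libraries correlated at -0.101 to 0.162, so the block was kept as an alternative. No 2 libraries agreed within sampling noise (chi-square per degree of freedom at least 14.4).

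Counts were filtered with filterByExpr (minimum count 10, minimum total 15), scaled with TMM factors and compared in R 4.3.3 by the quasi-likelihood test of edgeR 4.0.16, cell type being the only term. P-values were adjusted by Benjamini-Hochberg over 14609 genes and called under 0.05. They measure the spread between these libraries. Fold changes are luminal minus basal on the log2 scale, and the SE is the size of that value divided by the square root of F. CPM uses the TMM-scaled total of genes tested, and RPKM divides it by merged exon length (GENCODE M21 basic, GRCm38). Symbols and gene coordinates came from RefSeq GRCm38.p6 (24570 of 24594 matched). Paralog ratios add 0.1 CPM to each gene. Every member is named, and values per library are given for members changed at least 2-fold and for Ezh1, Ezh2, Dnmt1, Dnmt3a and Dnmt3b. In the Results, related genes are named if changed at least 2-fold, with Jarid2, Pcgf2, Asxl1, Asxl2 and Bap1 added after their values were seen. Related genes with a library singled out are named in the section on flagged results, whatever their fold change. The members, lists and pairs were chosen with earlier results of these data known. Alternatives were other scaling and filters, DESeq2 1.42.0, limma voom 3.58.1, the replicate block, omission of each library and, added after seeing the data, removal of a smooth curve (4 degrees of freedom) of log2 CPM on exon length from each library, the same with the block, and omission of both libraries numbered 4. Of the related genes, 2 are counted with their lists and not reported singly. The scripts were tested on simulated data.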

Additional observations from a re-analysis of the deposited data

Results flagged for a closer look

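A library was singled out when its distance from the nearest of the other 4 of its group was a large part of the group's range (Dixon's test, critical value 0.71). The 2 related genes not reported singly were not screened, nor were 2 groups in which no library held over 3 counts. Of the 202 groups tested over members and related genes, 17 were singled out, where chance alone would give about 10.1 at 1 in 20. Of these, 9 fell on basal replicate 4 and 5 on luminal replicate 4, the libraries low in long transcripts.

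Among the members, luminal replicate 4 held 66.6 CPM of Eed (39.2 to 44.1 in the others) and 32.8 CPM of Hdac9 (15.5 to 19.9). Basal replicate 4 held 28.3 CPM of Ring1 (20.8 to 22.2), 51.6 of Dnmt3a (71.1 to 76.5) and 23.1 of Hdac9 (11 to 13.3). Hdac9 was thus high in both layers of the same animal. Luminal replicate 3 held 128 CPM of Cbx7 (68.3 to 79.6), and basal replicate 5 held 4.80 CPM of Dnmt3b (2.06 to 2.25).

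Among the related genes, luminal replicate 4 held 1040 CPM of Jarid2 (95.5 to 245), 43.1 of Hdac8 (23.8 to 28.8) and 2.75 of Chd5 (0.105 to 0.813). Basal replicate 4 was low in Zbtb33 at 26.0 CPM (37.2 to 39.6), Setd1b at 43.5 (58.8 to 64.7), Kdm5c at 134 (161 to 166), Kdm2a at 153 (218 to 242) and Phf21a at 68.0 (99.2 to 110). It was high in Pcgf1 at 4.81 CPM (2.12 to 2.88). Luminal replicate 5 held 370 CPM of Hdac11 (187 to 239).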

How the results depend on the processing

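The 10 members higher in luminal and 9 of the 20 higher in basal cells kept call and direction in every alternative run. How many of all genes did so was not measured. These kept counts cannot be compared. Upper-quartile scaling and library totals shifted genes toward luminal (medians 0.12 and 0.19). Length removal (median 0.11) moved long genes toward luminal and short ones toward basal. The count of basal members fell from 20 to 10 with library totals and to 13 with length removed and the replicate block together, and the related basal count fell from 26 to 17 with length removed, with or without the block. The luminal share of called members was 33.3%, 46.2% on upper-quartile scaling, 54.5% on library totals, 50% with length removed and 53.6% with the block added. The corresponding shares of all genes tested, luminal and basal, moved from 33.6% and 31.2% to 37.2% and 27.7% on upper-quartile scaling and 39.1% and 25.4% on library totals, but hardly with length removed (34% and 29.8%, and 32.6% and 29.4% with the block). Same-numbered libraries come from 1 animal by their descriptions, and with the replicate block alone the split was 11 to 19, in which Hdac9 gained (0.58) and Mbd3 lost its call (-0.37) and no other member changed call. Omitting 1 library gave 10 to 11 luminal and 15 to 20 basal members, lowest without luminal replicate 2.

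Some directions turned. With length removed, without and with the block, Eed was -0.0642 and -0.0651, Dnmt3a 0.113 and 0.107, Tet3 0.355 and 0.361, Kmt2c 0.276 and 0.273, Kmt2d 0.582 and 0.532, Hdac5 0.0531 and 0.0969, Ncor1 0.156 and 0.161 and Mta1 0.00488 and 0.00666. Eed was -0.0307 without both libraries numbered 4. Mta1 was 0.114 on upper-quartile scaling, 0.184 on library totals and -0.0497 to 0.0304 with 1 library omitted. Chd4 was -0.0313 with DESeq2 size factors and with DESeq2, -0.0607 with no filter, -0.0667 with limma voom, -0.0664 with the block and -0.219 to 0.141 with 1 library omitted. Causes were not tested. Of the member values with 1 library omitted, 385 kept side and direction, 19 lost a call and 6 gained one without turning, and 10 turned. Of those under other alternatives the numbers were 395, 25, 17 and 24. With length removed, some values that turned also lost a call (Dnmt3a, Kmt2c and Ncor1) or gained one (Tet3 and Kmt2d). Dnmt3b was not tested when 10 counts were required in every library. Among the members, depth limits Uhrf1, Dnmt3b and luminal Tet1 most.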
